A study of Mus musculus with 2 samples.

Results

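Long footprints, stretches of 25 or more bases inside open chromatin that were cut less often than their surroundings, were chosen by their length from 2 DNase-seq libraries of mouse cortex. Library 1 held 21412 of them among 271439 footprints (7.89%, exact binomial 95% interval 7.79 to 7.99%) and library 2 held 25315 among 323715 (7.82%, 7.73 to 7.91%). Shorter footprints that overlapped a long one of the other library by at least 1 base were added, 12925 in library 1 and 8359 in library 2, which gave 68011 members in all, 34337 and 33674 by library. Each library came from left cerebral cortex of B6CASTF1/J females, hybrids of C57BL/6J and CAST, taken as adults at an age of 18 to 20 months. Both libraries belong to this 1 group, so there is no condition to compare. They are named after their biological replicate numbers, and the labels give them separate tissue samples but the same donor identifier, so the spread between them may be technical. Means are followed by the SD over both libraries (n = 2), a number that allows no test, and intervals of shares cover the counting of footprints only, since footprints of a shared peak are not independent and the read depth is unknown.

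DNase I cuts DNA that nucleosomes leave free, and a protein bound within such an open site shields the bases it touches. A footprint is this shielded stretch, and its length can reflect how much DNA is covered, by a single large factor, by neighbouring factors or by a multiprotein complex. CTCF, a factor with many zinc fingers that marks insulators and the anchors of chromatin loops, covers a long site of its own. Genes for transfer RNA (tRNA) are read by RNA polymerase III, whose factor TFIIIC binds the A and B boxes inside the gene and brings TFIIIB to the DNA just upstream.

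The sequences below show what long footprints covered. They are the mm10 reference, 5′ to 3′ on the strand named, over the bases covered in either library, and the reference is of the C57BL/6J strain, so CAST differences are not shown. The first 3 are the regions with the strongest peaks among those of 25 to 34 bases in both libraries that hold the CTCF consensus, which stands in capitals. They lie near Fem1a (chr17:56255945-56255973, minus strand, outside genes), in an intron of Nuak1 (chr10:84438191-84438222, minus) and in the promoter window of Cbl (chr9:44234235-44234261, minus).
Fem1a: tgctgaCCAGCAGGGGGCGcgcgccgagt
Nuak1: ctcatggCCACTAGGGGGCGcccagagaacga
Cbl: cttctCCAGCAGAGGGCGcaggcactg

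Longer CTCF footprints reached further upstream. Those of 39 to 49 bases are shown with the strongest examples that also held a second block at a fixed distance, both blocks in capitals. This choice was made after the base frequencies given further on were seen. They lie in an intron of Camta1 (chr4:151141710-151141758, minus) and outside genes nearest to Ptma (chr1:86501761-86501806, plus) and Mcph1 (chr8:18564829-18564876, minus).
Camta1: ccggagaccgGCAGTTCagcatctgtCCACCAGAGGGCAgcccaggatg
Ptma: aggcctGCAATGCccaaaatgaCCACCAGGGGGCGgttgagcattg
Mcph1: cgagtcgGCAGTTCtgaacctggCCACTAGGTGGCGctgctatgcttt

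Promoter footprints held the sites of other factors, in capitals. The strongest printable examples were an NRF1 match at Nup107 (chr10:117792796-117792829, minus), a CREB match at Gm44686 (chr7:73537872-73537907, plus) and an NFY match at Bahcc1 (chr11:120232843-120232879, plus).
Nup107: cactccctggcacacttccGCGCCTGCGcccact
Gm44686: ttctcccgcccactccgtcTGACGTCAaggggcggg
Bahcc1: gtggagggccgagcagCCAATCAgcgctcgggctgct

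Of the 3 longest printable regions 2 held a pair of matches, and the other, at Leprot, held none of the consensus sequences searched. Ccdc66 (chr14:27508492-27508564, plus) is shown for a pair of NFY matches, 1 on each strand, and the intron region named for its nearest start, Gm7775 (chr10:77130730-77130795, plus), for a pair of CTCF matches with 1 mismatch each. The last 2 sequences lie at tRNA genes of the RefSeq annotation of GRCm38.p6: the upstream footprint of n-TLtag1 (chr7:120835547-120835611, minus, the strand of the gene) with the first 14 bases of the gene in capitals, and the internal footprint of n-TRtcg5 (chr7:79466453-79466496, plus) with the B box letters in capitals.
Ccdc66: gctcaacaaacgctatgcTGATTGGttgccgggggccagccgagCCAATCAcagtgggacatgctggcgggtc
Gm7775: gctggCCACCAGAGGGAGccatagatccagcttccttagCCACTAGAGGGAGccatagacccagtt
n-TLtag1: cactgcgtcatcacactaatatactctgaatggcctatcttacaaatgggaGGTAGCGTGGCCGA
n-TRtcg5: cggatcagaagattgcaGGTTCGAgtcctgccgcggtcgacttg

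Most footprints were short, and the long ones formed an uneven tail. The median length over all footprints was 9 bases in each library, and 188919 and 224908 footprints had 7 to 12 bases. Just outside the limit, at 24 bases, there were 2806 and 3162 footprints, and just inside it, at 25 bases, 2528 and 2720. The long ones had a median of 30 bases and reached 73 bases in library 1 and 81 in library 2. With minima of 20 and 30 bases in place of 25, the mean count per library was 41391 and 12012 in place of 23364. Long footprints held 20.4% and 20.2% of all footprint bases. Counts fell steeply from 32 bases (1186 and 1681) to 36 (392 and 481) and less from there to 45 bases (313 and 383). In library 2 the count was 317 at 38 bases, below the 383 at 45. Counts then fell, to 55 and 79 at 50 bases. After this course was seen, long footprints were split into those of 25 to 38 bases (18029 and 21617), 39 to 49 (3152 and 3443) and 50 or more (231 and 255). Among footprints below the limit there was a further step, from 15385 and 17967 at 13 bases to 4359 and 5627 at 14.

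**Figure D1:**
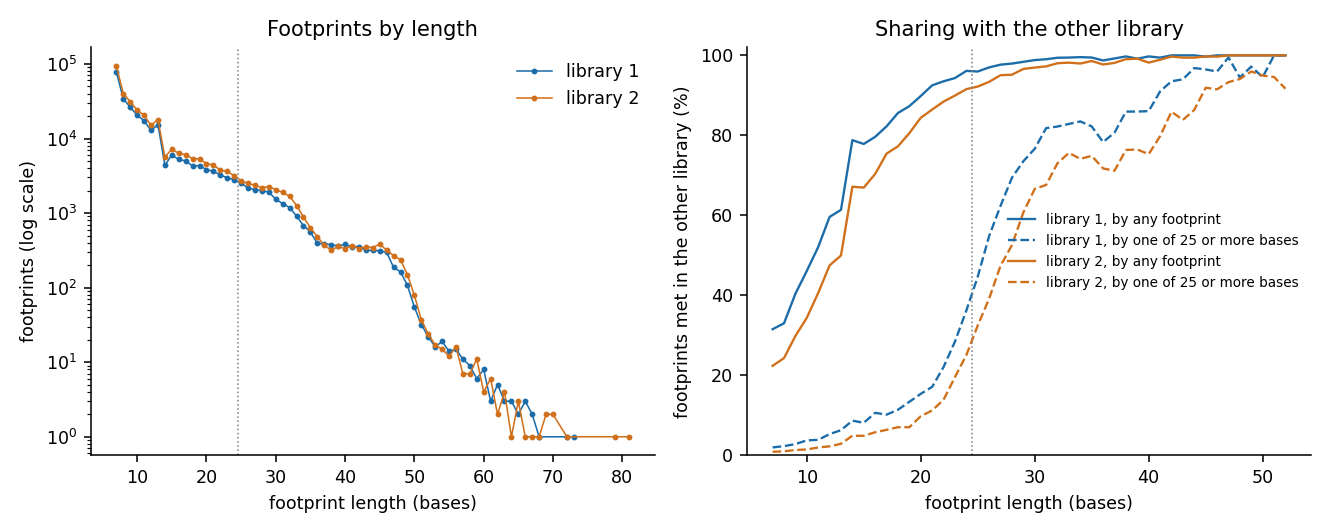
Left, number of footprints (log scale) against their length in bases for library 1 (blue) and library 2 (orange), with the limit of 25 bases dotted. Right, share of footprints of each length (lengths with 20 or more) overlapped by any footprint (solid) or by a long one (dashed) of the other library. Counts fall less steeply from 36 to 45 bases than from 32 to 36. Both shares rise over most of the range of lengths, and the share met by a long footprint dips near 36 bases in each library.

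Nearly every long footprint was seen again in the other library. In library 1, 98.4% were overlapped by a footprint of library 2, and in library 2, 96.4% by one of library 1 (97.4% ± 1.40). Over all footprints the shares were 52.4% and 43.4%, and for footprints of 7 to 12 bases 38.4% and 28.4%. Those of 13 to 24 bases stood between long and short ones, at 79.6% and 71.1%. There was no step at the limit: 96.1% and 91.6% were met at 24 bases, and 96.0% and 92.2% at 25. A longer stretch is more easily overlapped by 1 base, so the same was counted with an overlap of at least 50% of both partners. This gave 87.5% ± 5.62 for long footprints, 59.7% ± 6.83 for those of 13 to 24 bases and 21.2% ± 3.44 for those of 7 to 12. The stronger peaks that hold long footprints moved with this share, and their part in it was not tested.

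Length itself was less well kept. A long footprint met one of 25 or more bases in 72.5% of cases in library 1 and 61.3% in library 2, and the rest mostly met one of 13 to 24 bases (22.1% and 27.4%). The class of 39 to 49 bases recurred as such: 1897 of 3152 in library 1 (60.2%, 58.5 to 61.9%) and the same number of 3443 in library 2 (55.1%, 53.4 to 56.8%) met a footprint of 39 to 49 bases. A further 29.8% and 28.6% met one of 25 to 38 bases. Of the footprints of 50 or more bases all were met, and 105 of 231 and 105 of 255 by one of 50 or more. Both ends lay within 2 bases of the partner's ends for 40.7% and 35.3% of the long footprints that had a partner, and were identical for 7.10% and 6.13%. In 13.98% ± 1.81 a long footprint was split into 2 or more footprints in the other library.

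Joined over both libraries, long footprints made 31204 regions, of which 15513 were long in both (49.7%, 49.2 to 50.3%). Library 1 alone was long in 5894, where library 2 had a shorter footprint in 5542 and none in 352. Library 2 alone was long in 9797, with a shorter one in library 1 in 8881 and none in 916. The shorter partners differed between the libraries. Those of library 1, at sites long in library 2, had a median of 14 bases, lay in promoter windows in 34.7% and held the CTCF consensus in 8.08%. Those of library 2 had a median of 16 bases, lay in promoter windows in 49.5% and held the consensus in 3.601%. The longest footprints without any partner lay, in library 1, in Mkln1 (41 bases) and otherwise outside genes. Outside genes, the nearest starts were those of Gm46329 (45 bases long, 125276 bases away) and Gm9949 on chromosome 18 (41, 49873 away). Those of Gm7214 (40, 7066 away) and the dopamine receptor gene Drd1 (39, 7799 away) were nearer. In library 2 the longest without a partner lay in Ssc4d (46 bases), at Mir7055 (44), in Tmprss2 (44) and at Snrpn, an imprinted gene (43). Another, of 45 bases, lay in an intron, 33209 bases from the nearest start, that of Gm22213. The peaks of these footprints without a partner had signals from 0.613 to 1.65 in library 1 and from 0.419 to 0.851 in library 2. These signals lay below the median over long footprints, given below. The median over all peaks, each counted once, was 0.640 and 0.641.

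Long footprints lay in stronger peaks than those of 7 to 12 bases and nearer to their centres. The signal is the authors' value per peak, deposited without a stated scale. Over long footprints, each counted with the signal of its holding peak, the median was 2.05 (library 1) and 2.07 (library 2). Footprints of 7 to 12 bases lay in peaks with medians of 0.892 and 0.888, and those of 13 to 24 bases in peaks with medians of 1.46 and 1.57. By single length the rise was not even: the median was 2.01 and 2.00 at 22 bases and 1.92 and 1.95 at 25. The median rose over the classes of long footprints, from 1.99 ± 0.0350 at 25 to 38 bases through 2.30 ± 0.0504 at 39 to 49 to 4.45 ± 0.429 at 50 or more. Within promoter windows the median was 4.62 ± 0.0935 for long footprints against 1.91 ± 0.0134 for those of 7 to 12 bases. Elsewhere it was 1.57 ± 0.0784 against 0.748 ± 0.0109, so long footprints lay in the stronger peaks in both places. Footprints of 13 to 24 bases stood between, at 3.62 ± 0.0220 in promoter windows and 1.01 ± 0.0304 elsewhere. The median distance to the centre of the peak was 13.3 ± 0.354 bases for long and 46.3 ± 3.18 for footprints of 7 to 12 bases. For those of 13 to 24 bases it was 34.8 ± 3.18. Few long footprints lay in no listed peak (3.51% and 3.36%, against 10.7% and 12.9%). Of the peaks, 18401 in library 1 (13.9%) and 21875 in library 2 (15.6%) held a long footprint. Most of these held 1 (16448 and 19596), and 1676 and 1997 held 2, with a maximum of 5 and 6.

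Promoters held a larger share of the long footprints than of those of 7 to 12 bases, and a smaller one than of those in between. Places were taken in the order of within 500 bases of a GENCODE M21 gene start, exon, intron and outside genes. The promoter share was 37.2% in library 1 (36.6 to 37.9%) and 32.8% in library 2 (32.2 to 33.3%), a mean of 34.98% ± 3.14. For footprints of 7 to 12 bases it was 29.0% and 29.5%, so the difference was 8.21 percentage points in library 1 and 3.23 in library 2. For footprints of 13 to 24 bases the promoter share was 40.8% and 40.7%, and for all footprints 32.3% in each library, close to the library 2 value of long ones. Long footprints that overlapped a long one of the other library had 32.9% in library 1 and 32.8% in library 2, also close to it. A window of 2000 bases gave differences of 6.49 and 1.53 points from footprints of 7 to 12 bases, and footprints of 30 or more bases gave 7.74 and 1.42 points. Introns held 28.1% and 30.6% of long footprints against 36.8% and 36.3% of short ones. Exons held 4.27% and 4.86% against 5.30% and 6.03%, and regions outside genes 30.5% and 31.8% against 28.9% and 28.1%.

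The promoter share did not follow length evenly. At 31 bases it was 31.3% in library 1 and 27.6% in library 2, at 37 bases 48.2% and 49.3%, and at 47 bases 27.8% and 15.99%. Among footprints of 50 or more bases it reached 51.5% and 45.5%. The share with the CTCF consensus ran the other way over the first 3 of these lengths: 20.3% and 21.02% at 31 bases, 10.6% and 6.47% at 37, and 21.4% and 20.4% at 47.

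**Figure D2:**
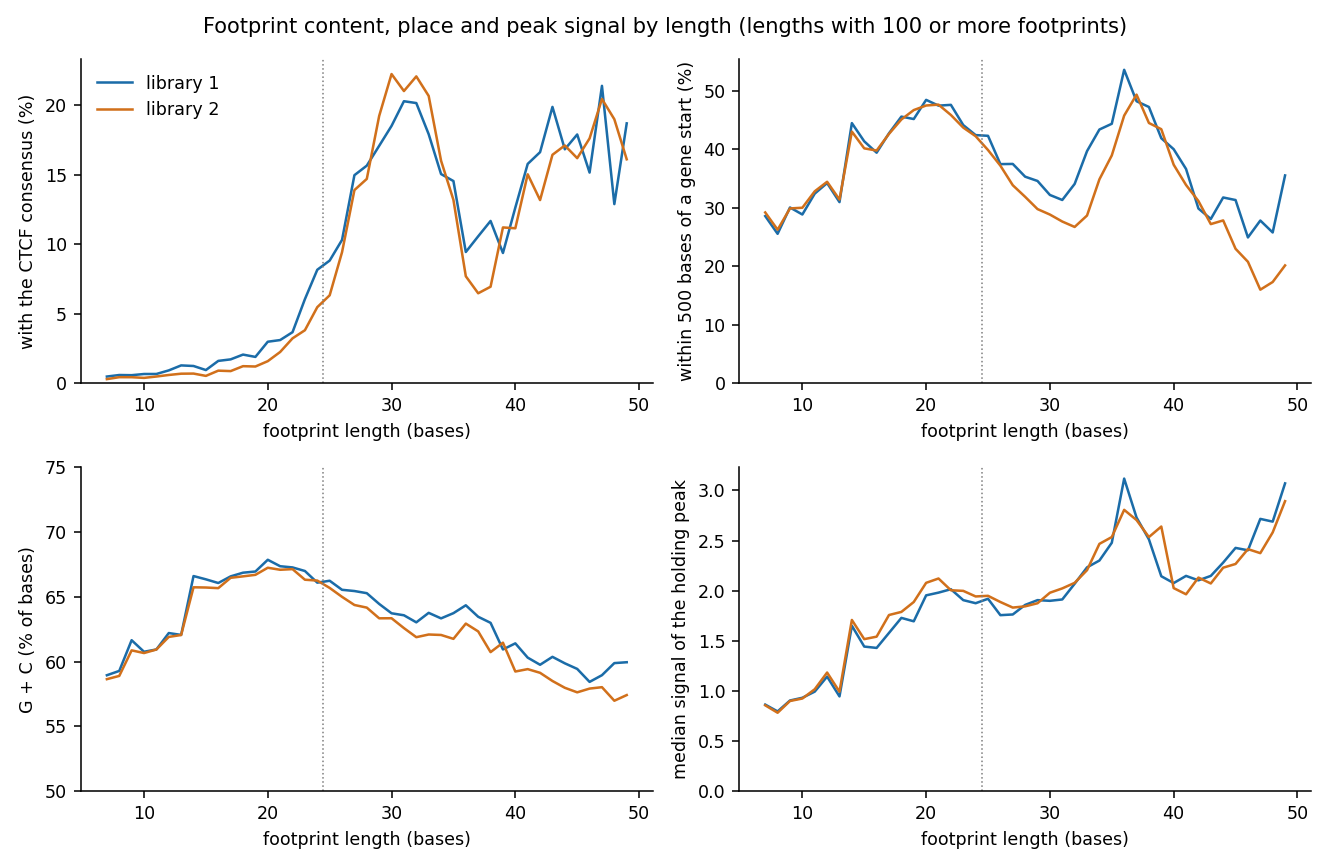
Share of footprints with the CTCF consensus within a 50-base window, share within 500 bases of a gene start, G and C content, and median signal of the holding peak, each against footprint length in bases for library 1 (blue) and library 2 (orange), with the limit of 25 bases dotted. The CTCF share peaks near 31 and again near 47 bases, and the promoter share is high near 37 bases.

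Within promoters, most long footprints lay upstream of the start, and the upstream share rose over the length classes. Of the long promoter footprints 76.4% in library 1 (75.5 to 77.3%) and 75.2% in library 2 (74.3 to 76.2%) had their midpoint upstream of the nearest start, with a median position of -40 in each library. For footprints of 7 to 12 bases 57.2% and 53.7% did, with medians of -14 and -8. Those of 13 to 24 bases stood between, at 68.2% and 65.9%, with medians of -31 and -26. The 100 bases before the start held 50.3% and 49.03% of the long promoter footprints. The same stretch held 31.3% and 28.3% of the promoter footprints of 7 to 12 bases and 42.8% and 41.1% of those of 13 to 24.

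Base content differed by place and by length. G and C made up 63.5% and 62.4% of the bases of long footprints and 60.2% and 59.8% of those of 7 to 12 bases, beside 53.6% and 54.5% of the peaks. The difference of long from short was 3.34 and 2.59 percentage points, and 1.95 and 1.18 points for footprints of 30 or more bases. In promoter windows long and short footprints had nearly the same content, 69.4% ± 0.920 and 69.8% ± 0.444. Elsewhere long ones were richer, 59.5% ± 0.184 against 55.9% ± 0.222. Content was highest at 13 to 24 bases, at 65.9% and 65.6%. It was lower in the longer classes, at 59.99% and 58.6% for 39 to 49 bases and 58.7% and 57.3% for 50 or more. Over the footprints' own bases, both lay below the values of footprints of 7 to 12 bases in each library. In windows of 50 bases centred on the footprint the order was reversed. There, footprints of 39 to 49 bases had 59.1% and 57.9%, and those of 50 or more 58.6% and 57.2%. Footprints of 7 to 12 bases had 55.3% and 55.9% in such windows. Footprints of 25 to 38 bases had 64.0% ± 0.767 over their own bases and 59.6% ± 0.380 in windows of 50 bases. CpG pairs numbered 5.84 ± 0.433 per 100 bases in long footprints and 4.78 ± 0.0436 in short ones. A pair was counted only where both bases lay inside the footprint, so shorter footprints offer fewer places for a pair per base. The part of length in this difference was not tested. Repeats, marked by soft-masking in the genome, made up 7.79% ± 0.484 of the bases of long footprints and 8.59% ± 0.131 of those of short ones.

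CTCF stood out among 20 consensus sequences searched on both strands in windows of 50 bases centred on the footprint. The windows have the same width for every footprint, so the length of the footprint does not set the number of bases searched. The CTCF consensus lay in the windows of 3163 long footprints in library 1 (14.8%, 14.3 to 15.3%) and of 3839 in library 2 (15.2%, 14.7 to 15.6%). It lay at 0.580% and 0.385% of footprints of 7 to 12 bases, and in 2.95% and 2.86% of windows of the same width on the midpoints of peaks. The share was thus 32.5 ± 9.86 times that at short footprints and 5.16 ± 0.200 times that at peak midpoints. The first ratio depends on the window: in windows of 100 bases the consensus lay at 14.8% and 15.2% of long footprints and at 1.17% and 0.915% of those of 7 to 12 bases. Outside promoters the share of long footprints with the consensus in 50 bases was 21.7% and 20.8%, and in promoters 3.04% and 3.61%, where peak midpoints stood at 0.886% and 0.892%. With 1 mismatch allowed, a search added after the data were seen, the consensus lay at 37.0% and 38.3% of long footprints, at 47.7% and 48.3% of those of 39 to 49 bases and at 2.35% and 1.77% of those of 7 to 12.

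CTCF footprints lay mostly outside promoters, in peaks of moderate signal. Only 7.65% and 7.79% lay in a promoter window, and the median signal of their peaks was 1.52 and 1.68. In library 1, 92.1% overlapped a long footprint of library 2, and in library 2, 75.9% overlapped one of library 1.

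Around the CTCF consensus, footprints of 25 to 34 bases and of 39 to 49 differed at the left edge and had close right edges. Positions are counted along the strand of the consensus from its first base as 1, with -1 as the base before it, for consensus matches within 100-base windows. Footprints of 25 to 34 bases (2474 and 3154) began at a median of -5 in each library and ended at 23 and 24. Those of 39 to 49 bases (499 and 539) began at -22 in each and ended at 22 and 23. In each class 98.1% or more of the footprints covered the whole consensus (98.1% and 98.5%, and 99.2% and 99.3%). The fewer footprints of 35 to 38 bases (204 and 168) lay between these classes at the left, with median starts of -13 and -8 (10th to 90th percentile -21 to -6 and -19 to -5), and they ended at medians of 24 and 27. Short footprints of 7 to 12 bases that lay near a consensus were mostly wholly upstream of it (54.9% and 59.1%), at medians of -15 to -7 in library 1 and -16 to -8 in library 2.

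**Figure D3:**
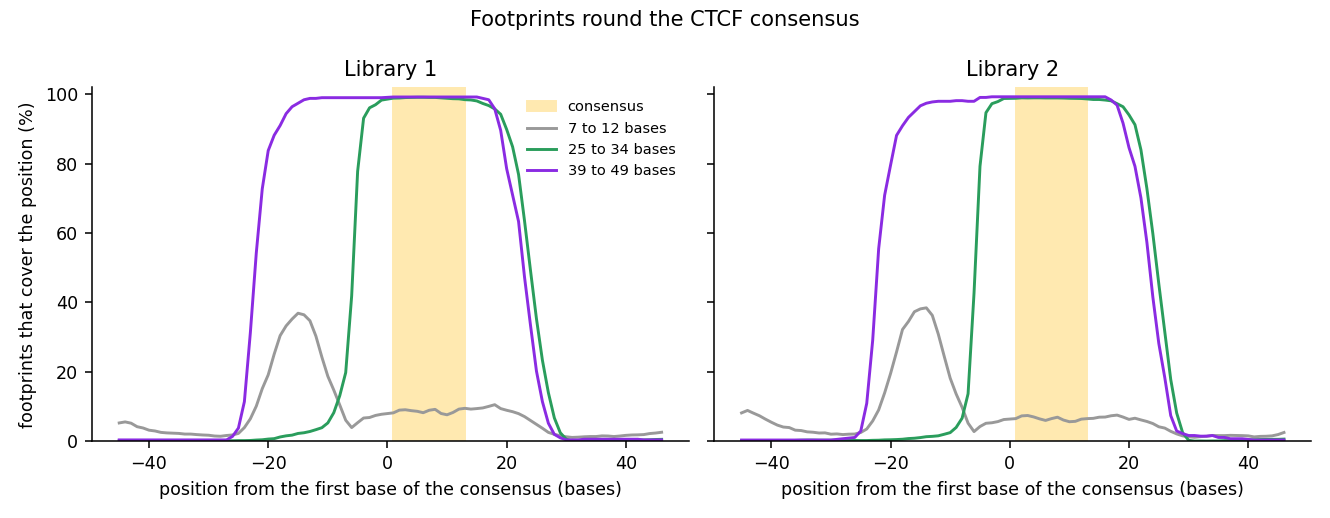
Share of footprints that cover each position around the CTCF consensus (shaded), for library 1 (left) and library 2 (right) and for footprints of 7 to 12 bases (grey), 25 to 34 (green) and 39 to 49 (purple), against position in bases from the first base of the consensus. Green and purple end together near 23 and begin near -5 and -22, and the grey footprints gather upstream of the consensus.

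The longer class had preferred bases upstream of the consensus. In footprints of 39 to 49 bases G stood at position -16 in 67.8% of library 1 and 73.0% of library 2. C stood at -15 in 59.4% and 62.9%, A at -14 in 55.3% and 57.4%, T at -12 in 69.2% and 75.05%, and C at -10 in 67.8% and 68.9%. In footprints of 25 to 34 bases the same T at -12 was at 43.2% and 42.3%, and the information there, where 2 bits mark an invariant base, was 0.121 and 0.113 bits against 0.631 and 0.804 in the longer class. The block of G, C, A, any base, T, any base and C, placed 9 bases before the consensus, was held by 74 of 496 CTCF footprints of 39 to 49 bases in library 1 (14.9%, 11.9 to 18.4%) and by 95 of 536 in library 2 (17.7%, 14.6 to 21.2%). In those of 25 to 34 bases it was held by 45 of 2462 (1.83%) and 39 of 3136 (1.24%), and by 2.36% and 2.19% near footprints of 7 to 12 bases. The block was read from these same footprints, so its share describes them and tests nothing.

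Sites of several promoter factors were also more frequent at long footprints than at those of 7 to 12 bases, at smaller ratios than CTCF. The CREB site TGACGTCA, bound by factors that answer cyclic AMP, lay at 1.32% and 1.21% of long footprints and at 0.189% and 0.149% of those of 7 to 12 bases, a ratio of 7.57 ± 0.810. NRF1 (GCGCNTGCG), a regulator of genes for mitochondrial function, lay at 3.18% and 2.16%, a ratio of 3.88 ± 0.791. The GC box of SP and KLF factors (GGGGCGGGG) lay at 4.23% and 3.31%, a ratio of 3.49 ± 0.444, and the site of ETS factors (CCGGAAGT) at 0.873% and 0.762%, a ratio of 2.58 ± 0.153. Footprints of 13 to 24 bases held NRF1 at 2.69% and 2.80% and the GC box at 4.07% and 3.94%, in library 2 more often than long ones, while CREB stood there at 0.659% and 0.608%, ETS at 0.728% and 0.642% and CTCF at 2.30% and 1.42%. The promoter factor sites are themselves rich in G and C or CpG, and the part of base content in the ratios was not tested.

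**Figure D4:**
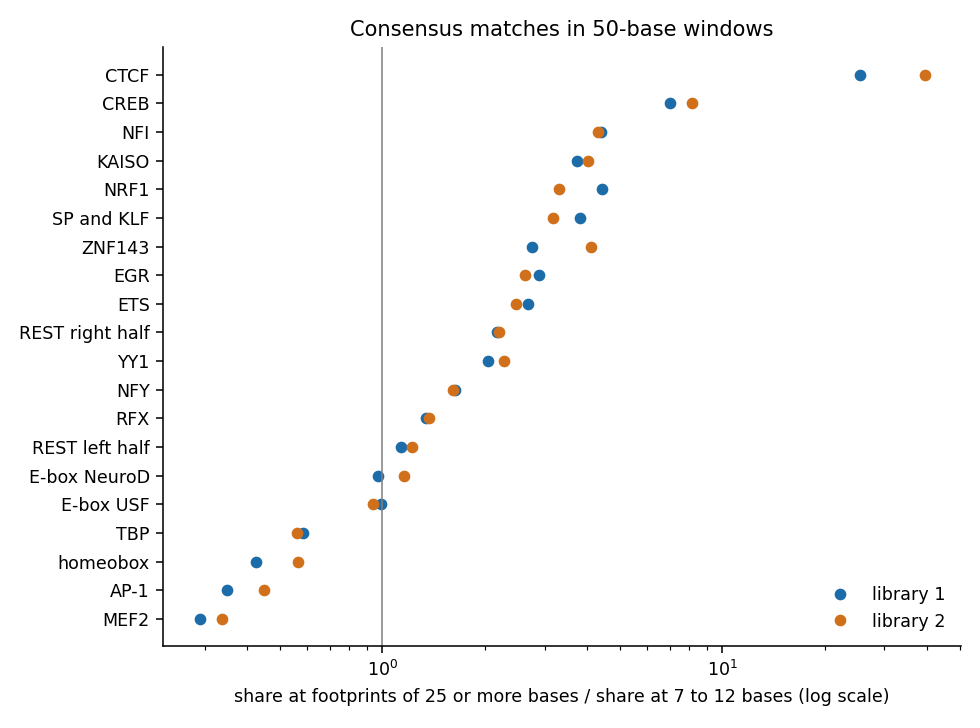
Share of long footprints with each of 20 consensus sequences in a 50-base window divided by the share of footprints of 7 to 12 bases (log scale), for library 1 (blue) and library 2 (orange). CTCF lies furthest to the right, CREB next, and AP-1 and MEF2 lie left of 1 in both libraries.

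Long footprints held most of these sites more often inside promoters as well. Among promoter footprints alone, CREB lay at 2.90% and 2.97% of long and 0.356% and 0.196% of short ones, NRF1 at 7.78% and 5.85% against 1.94% and 1.64%, and the GC box at 10.1% and 8.86% against 2.95% and 2.71%. NFY (CCAATCA), which binds the CCAAT box, lay at 3.11% and 3.01% against 1.62% and 1.37%. YY1 (AANATGGCG), a zinc finger factor, was close to even there, at 1.07% and 0.977% against 0.957% and 0.732%. Of the long footprints with a match, 91.2% and 88.8% of the NRF1 ones and 81.6% and 80.4% of the CREB ones lay in promoter windows. NFI, a dimeric factor with a part in glial development, had a ratio of 4.35 and lay mostly elsewhere: 18.7% and 23.4% were in promoter windows. Over peak midpoints, which held NFI at 0.343% ± 0.0466, its ratio was 2.04 ± 0.0346. It lay at 0.700% ± 0.107 of long footprints and at 0.558% ± 0.0695 of those of 13 to 24 bases. Matches of the remaining consensus sequences over long against short footprints had ratios of 3.88 for KAISO (TCTCGCGAG), 3.43 for ZNF143 (ACTACAANT), 2.76 for EGR (GCGTGGGCG), 2.19 for the right part of the REST site (GGACAGCGC) and 1.18 for the left part (CAGCACC), 1.35 for RFX (GTTGCNANG), 1.06 for the E-box of NeuroD factors (CAGATG) and 0.964 for that of USF (CACGTG). Of these, 3 lay more often at footprints of 13 to 24 bases than at long ones. They were EGR (0.432% ± 0.00164 against 0.259% ± 0.0366), RFX (1.66% ± 0.131 against 1.33% ± 0.185) and the USF E-box (2.13% ± 0.0154 against 1.43% ± 0.130). For KAISO, ZNF143, both parts of the REST site and the NeuroD E-box the mean was higher at long ones. Shares of all peak windows with each consensus were similar to those at short footprints for NRF1 (0.772% and 0.764%), the GC box (1.12% and 1.09%), ETS (0.341% and 0.308%) and NFY (0.837% and 0.784%), and were 0.338% and 0.317% for CREB.

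Sites of other factors were rarer at long footprints. AP-1 (TGANTCA), the dimer of Fos and Jun proteins that neurons induce with activity, lay at 1.34% and 1.28% of long footprints, at 3.82% and 2.86% of short ones and at 4.39% and 3.19% of peak midpoints. This was also so outside promoters, at 1.87% and 1.67% against 4.95% and 3.69%. MEF2, a neuronal and muscle factor, lay at 0.173% and 0.158% against 0.597% and 0.469%, and the homeobox core TAATTA at 0.266% and 0.277% against 0.628% and 0.489%. The TATA box (TATAAA) lay at 0.822% and 0.711% against 1.41% and 1.27%, and in promoters alone at 0.791% and 0.651% against 0.741% and 0.676%. A window can match several consensus sequences and was counted under each. At least 1 of the 20 was present at 37.4% and 35.5% of long footprints and at 20.1% and 17.6% of short ones, so most long footprints held none of these letters.

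Transfer RNA genes took up a large share of the longest footprints. They were examined after a tRNA gene was seen among the named regions. Of the footprints of 50 or more bases, 49 of 231 in library 1 (21.2%, 16.1 to 27.1%) and 58 of 255 in library 2 (22.7%, 17.7 to 28.4%) overlapped one of the 403 nuclear tRNA genes, against 1.11% and 1.05% of all long footprints and 0.0762% and 0.0560% of those of 7 to 12 bases. A peak overlapped 250 and 248 of these genes, and a long footprint 172 and 193, 163 of them in both libraries. Many tRNA genes are copies: 238 have an identical copy among the 403, of which 104 had a long footprint in both libraries, and so had 59 of the 165 without one. Reads from identical copies cannot be told apart within the gene itself.

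The footprints at tRNA genes were of 2 kinds. Those that started inside the gene, 167 and 182, had median lengths of 36 and 35.5 bases and ran from a median of base 40 to bases 76 and 75 of genes whose median length was 72. None of them reached 50 bases, and the longest had 47 and 44. Those that crossed the first base of the gene, 71 and 83, had median lengths of 54 and 53 bases, ran from 48 and 46 bases before the gene to bases 9 and 7 inside it, and included all of the footprints of 50 or more bases counted above. A further 69 and 75 lay wholly upstream, with medians from -49 to -12 and from -49 to -14. Between the kinds there was a gap: no tRNA gene was covered by a long footprint at bases 17 to 32 in either library. The upstream and the internal kind occurred together at 66 and 72 genes. The B box letters GGTTCGA, chosen after the data were seen, lay at 0.696% and 0.624% of all long footprints. By class this was 0.582% and 0.532% at 25 to 38 bases, 1.40% and 1.25% at 39 to 49, and 0 of 231 and 0 of 255 at 50 or more. The letters lay at 0.119% and 0.114% of footprints of 7 to 12 bases and at 0.111% and 0.119% of peak midpoints.

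**Figure D5:**
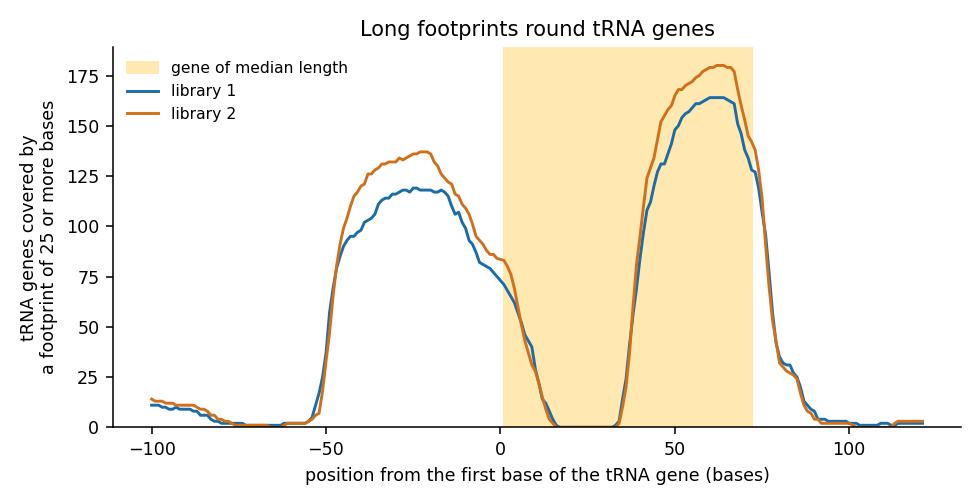
Number of the 403 tRNA genes covered by a long footprint at each position, in bases from the first base of the gene, for library 1 (blue) and library 2 (orange), with a gene of the median length of 72 bases shaded. One block lies over the upstream bases (119 and 136 genes at -24), the other over the second part of the gene (164 and 180 at base 64), with none between bases 17 and 32.

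The 10 regions of largest mean length that were long in both libraries lay at promoters and elsewhere. Ccdc66, a gene for a protein of centrosomes and cilia, had 73 bases in library 1 and 67 in library 2, 68 bases upstream of a start, with a signal of 8.62 ± 0.214. Leprot, which shares its promoter with the leptin receptor gene, had 68 and 65 (signal 10.4 ± 1.11). Zmynd8, a reader of histone marks, had 72 and 57 (6.13 ± 0.194) and Erlin2, a protein of the endoplasmic reticulum, 66 and 58 (6.68 ± 0.0283). Outside promoters were the region named for Gm7775 (64 and 66) and one in an intron nearest to AC154187.1 (65 and 65). Outside genes were one nearest to Shf (62 and 61) and the n-TLtag1 region, nearest to Eef2k (65 and 64, signal 5.13 ± 0.0219). The remaining 2 lay in soft-masked repeats (67 and 63 soft-masked bases), with peak signals of 0.740 ± 0.148 and 0.396 ± 0.0685. The first lay outside genes, nearest to Gm11403 (67 and 68). The second lay in a promoter window, 320 bases upstream of a start of Gm10722 (63 and 63). Ends were close between the libraries at most of these: at AC154187.1 both ends were the same, and at Zmynd8 the left end differed by 15 bases (165884719 and 165884734 on chromosome 2).

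Among regions long in both libraries, those in the strongest peaks ranged from 25 to 55 bases. At Trpm8, the cold receptor gene, a footprint of 25 and 28 bases lay 47 bases after a start in a peak of signal 23.8 ± 1.23. The peak of Bahcc1 (13.7 ± 0.425) held 3 regions long in both libraries, of 36 and 35, 30 and 30, and 37 and 26 bases, at 241, 161 and 86 bases upstream of a start. The other promoter regions of highest signal were at Gm21887 (27 and 25 bases), Gm23935 (44 and 44), Gm21769 (45 and 45, with the CTCF consensus), 2610005L07Rik (46 and 46), Rsph1 (27 and 29) and Acin1 (39 and 38). Outside promoters they were in an exon nearest to Gm15564 (32 and 38 bases) and in an intron of Il31ra (55 and 35). The others were at 2 places outside genes nearest to Gm43980 (45 and 51, and 34 and 31) and in an intron nearest to Gm15247 (52 and 49). Signals were not equal between the libraries, as at Gm21887 with 18.6 and 28.1 and Il31ra with 19.5 and 29.0.

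For most consensus sequences the region of highest signal lay at a promoter. For NFY and for NFI it was the second Bahcc1 region, and for YY1 that at Ip6k1 (38 and 33 bases), a kinase of inositol phosphates. For ETS it was at Ccnt1 (42 and 41), a cyclin of transcription elongation, and for KAISO at Rbm39 (42 and 44), a splicing factor. It was at Zxdc for EGR (41 and 42), at Tle4, a corepressor, for the USF E-box (30 and 25), at Rab11b for the NeuroD E-box (51 and 54), at Klf6 for MEF2 (30 and 28) and at Poc5 for the homeobox (33 and 38). For RFX it was in an exon nearest to Gm14486 (26 and 25). Outside genes it was nearest to Trpv4 for the right part of the REST site (29 and 29), to Pak3 for the TATA box (47 and 45, all soft-masked) and to Gm43980 for AP-1.

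The lists of immediate early, clock and housekeeping genes had the largest shares of promoters with long footprints among the 9 lists counted. A long footprint lay within 500 bases of a start in both libraries at 6 of 12 immediate early genes, 6 of 12 clock genes and 8 of 14 housekeeping genes, beside 4562 of 21909 protein-coding genes (20.8%). The counts were 4 of 14 for pan-neuronal genes, 2 of 12 for astrocytes, 1 of 12 for excitatory neurons, and 0 of 12 each for inhibitory neurons (0 in library 1 and 3 in library 2), oligodendrocytes and genes of other tissues. The pan-neuronal share (28.6%) lay above that of all protein-coding genes and the astrocyte share (16.7%) near it, and no list was tested against it. In bulk tissue the share of cells that hold a footprint cannot be read from these counts. Of marker genes, 9 of 9 for neurons, 5 of 11 for glia, 1 of 3 for endothelium and 0 of 5 for other tissues had a promoter peak in both libraries. The glial markers without such a peak included Aqp4, Sox10 and Cx3cr1. The share of all protein-coding genes with a promoter peak is not given here. These marker counts therefore cannot be set against a general rate and describe the markers only.

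Among immediate early genes, which neurons switch on with activity, Jun had a row of long footprints. Library 1 had 6 and library 2 had 7 within 500 bases of its start, of 26, 37, 35, 31, 35 and 29 bases in library 1 and of 25, 35, 36, 32, 35, 27 and 29 in library 2. The first 6 of each overlapped, and the seventh met a footprint of 24 bases. Arc, a regulator of synaptic strength, had 2 in each library, of 37 and 38 bases in library 1 and 39 and 36 in library 2, the first 33 and 34 bases from a start. Egr1, an inducible zinc finger factor on chromosome 18, had a pair of 26 and 31 bases in library 1 and 25 and 32 in library 2, with 2 more in library 2. Nr4a1, an orphan nuclear receptor, had 27 bases in library 2 where library 1 had 25, and Btg2, an inhibitor of proliferation, had 25 in each. Junb was long in both libraries, but at different places.

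Among clock genes some lengths recurred and others did not. Arntl, which encodes the activator BMAL1, had a footprint of 30 bases in each library with the same ends (113207354 to 113207383 on chromosome 7), and Cry2, a repressor, had 30 and 30 shifted by 1 base. Dbp, a clock-controlled factor, had 31 and 31, Per2 had 29 and 28 and Per1 30 and 27, both of them repressors of the clock. Cry1 had 25 bases in library 1 where library 2 had 33, and its footprint of 44 bases in library 2 met one of 23. Dbp had a second long footprint, of 35 bases in library 1, that met one of 19, and that of Clock, of 32 bases, met one of 17. Of the housekeeping genes, Ppia, a prolyl isomerase, had 62 and 41 bases at one place and 29 and 39 at another, and Hsp90ab1, a chaperone, 54 and 33. Eef2, the elongation factor, and Psmb2, a proteasome subunit, each had 2 in both libraries. At Actb lengths at one place differed, 45 against 29. Tbp (36 and 25), Gapdh (27 and 32) and B2m (29 and 30) had 1 in both.

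Of the neuronal genes, Uchl1, a neuronal ubiquitin hydrolase, had 48 and 36 bases in library 1 and 45 and 35 in library 2. Elavl4, an RNA-binding protein, had 40 and 43, Nefl, the light neurofilament, 31 and 30, and Map2, a dendritic microtubule protein, 25 and 26. In astrocytes, Gfap, the glial filament, had a footprint of 35 bases in each library, 88 and 86 bases from a start, in a peak of signal 1.25 and 1.66. Slc1a2, the glutamate transporter, had 32 and 31 (1.02 and 1.202). Cux2, the only excitatory neuron gene counted, had its long footprints at different places, 25 bases in library 1 without any partner and 27 in library 2.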

How the data were processed

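The members, lists and consensus sequences were chosen with earlier results of these data known. Per the deposited readme files, the authors made 2 peak lists and a footprint list for each library from its own alignments on mm10. The signal (column 7) of each peak was deposited without a stated scale, and each line of a deposited footprint list carries 0.01 as its q-value. Aligner and callers were not given in the sources used here, nor was the handling of CAST alleles.

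Footprint length was end minus start. Midpoints on chromosomes 1 to 19, X and Y were placed by GENCODE M21, and the holding peak was the strongest of the longer list over the midpoint (132054 and 139799 peaks). Base content and consensus matches came from the reference genome, GRCm38.p6, whose chromosomes equal mm10, and tRNA genes from its RefSeq annotation. Named regions were the 10 of largest mean length, the 10 promoter and 5 other regions of highest signal among regions long in both libraries, the 5 longest without a partner per library, the strongest with each consensus, and list genes with such a region. Some items that this rule takes are left out of the text. Alternatives were length minima of 20 and 30, each library alone, stricter overlaps, promoter windows of 250 and 2000, the shorter peak list and other consensus windows. Python 3.11.15, numpy 2.4.6, pandas 2.3.3 and scipy 1.17.1 were used, and overlap, place and consensus steps were tested on simulated data.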

Additional observations from a re-analysis of the deposited data

How the results depend on the processing

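With a minimum of 20 bases the mean count per library rose from 23364 to 41391, and with 30 it was 12012. Those that overlap a long footprint of the other library numbered 15518 per library. The share met by the other library was 94.3% at 20 bases, 98.8% at 30, 87.5% with an overlap of 50% of both and 66.9% when the partner had to be long. The promoter share was 39.8% at 20 bases, and 31.1% and 45.3% with windows of 250 and 2000 bases. For footprints long in both libraries it was 32.8%, close to the 32.3% of all footprints. With 2000 bases the library 2 shares were 43.3% for long footprints and 41.8% for those of 7 to 12. The median signal was 2.03 at 20 bases, 2.23 at 30, 2.20 for footprints long in both libraries and 2.11 in the shorter peak list. G and C content was 64.4% at 20 bases, 61.6% at 30 and 59.5% outside promoters. The CTCF share was 10.1% at 20 bases, 17.1% at 30, 18.8% for footprints long in both libraries and 37.6% with 1 mismatch, the last added after the data were seen. None of these settings put long footprints below those of 7 to 12 bases in promoter share, signal or CTCF share, where both were computed.

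Without replicate 1 or 2 the count ranged from 21412 to 25315, the met share from 96.4% to 98.4%, the promoter share from 32.8% to 37.2%, the signal from 2.05 to 2.07, G and C content from 62.4% to 63.5% and the CTCF share from 14.8% to 15.2%. No paired analysis was possible because there is 1 group. The read depth is unknown, so whether a footprint missing from a library reflects its depth cannot be told.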
